A study of Mus musculus with 27 samples.

Results

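Dbp, Tef and Hlf encode the PAR bZIP transcription factors of the circadian clock's output, and Nfil3 encodes their antagonist. All probe sets annotated to these 4 genes were taken, 8 of 45037 probe sets without controls: 2 for Dbp, 3 for Tef, 2 for Hlf and 1 for Nfil3. At the gene level they are 4 of 18193 genes, each read by its brightest probe set unless another is named. Their levels came from full-thickness colon of mice, 1 array per sample, with 3 arrays in each of 9 groups. At 7, 9 and 12 weeks of age there were Il10-/- mice in conventional housing (conventional knockouts), Il10-/- mice in specific pathogen free housing (SPF knockouts) and wild types in conventional housing, the control. The conventional knockouts carry a short code, read by elimination from the other codes. No SPF wild types were used here, so SPF knockouts differ from wild types in genotype and housing at once. Strain, sex, knockout allele and any pooling of animals were not given in the sources used here. Replicates had been picked by the authors for their colon length and colonic damage, which makes them no random sample, and the p-values measure only the spread between these samples, which may be technical. The hour of day of collection was likewise not given in these sources.

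DBP, TEF and HLF bind a short DNA element, the D-box, and activate genes near it, many of them for detoxification and lipid handling. NFIL3, also called E4BP4, binds the same element and represses. The clock's activators CLOCK and ARNTL (BMAL1) drive PAR bZIP genes through E-boxes, while the REV-ERB receptors encoded by Nr1d1 and Nr1d2 repress Nfil3 through ROR elements, which ROR receptors activate. The activators and the repressor therefore peak at opposite times of day in many tissues. NFIL3 also has roles outside the clock, in the development of innate lymphoid cells and in lipid uptake by gut epithelium.

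Spearman's rho between arrays was 0.953 to 0.993, array medians were 4.91 to 4.98 (log2), and precision is limited by the number of arrays. Il10, the targeted gene, had 1 probe set, with a lowest knockout value of 4.66 and a highest wild-type value of 3.83. Its place relative to the deleted part is unknown, so it checks nothing. The tissue label fits its defining markers in every array: the epithelial genes Epcam and Vil1 were at least 12.40 and 10.73, and the smooth muscle genes Myh11 and Actg2 at least 9.76 and 10.12. Wild-type 12-week replicate 2 had the largest actin difference between the 3' and 5' ends, 0.95 on the log2 scale, and the other arrays had 0.37 to 0.72.

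The promoter windows of the members show where the letters of clock elements lie upstream of genes that moved in opposite directions. RefSeq (GRCm38.p6) gave 5 windows of 250 bases before an annotated start, 2 for Tef and 1 for each other member. They were searched on both strands for the E-box CACGTG, the D-box TTATGTAA or TTACGTAA, and the ROR element core TAGGTCA. The E-box was in both Tef windows, and the ROR element core, as its reverse complement TGACCTA, was in the Nfil3 window. None of these letters was in the Dbp or Hlf window, and no D-box was in any of the 5, which says nothing of sites outside them. Of 32851 windows of the same length, 6.02% held the E-box, 2.23% the ROR element core and 0.931% a D-box. A match is a description of the letters, not a bound site. The first Tef window, chr15:81802423-81802672 on the plus strand, lies outside the gene's annotated span. Its E-box, in capitals, is 127 to 122 bases before the start.
Tef promoter: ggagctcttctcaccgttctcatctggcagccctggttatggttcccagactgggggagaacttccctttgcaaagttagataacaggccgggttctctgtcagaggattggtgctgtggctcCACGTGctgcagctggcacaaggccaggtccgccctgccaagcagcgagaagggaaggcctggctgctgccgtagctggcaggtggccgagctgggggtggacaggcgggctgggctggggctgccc
The other matches lie in windows inside the annotated spans of their genes, so 30 bases around each are shown. The second Tef site is chr15:81811264-81811293 on the plus strand, 138 to 133 bases before a downstream start. The Nfil3 site is chr13:52981040-52981069, written along the minus strand, which carries the gene, with its match 12 to 6 bases before the start.
Tef second site: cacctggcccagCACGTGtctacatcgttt
Nfil3 site: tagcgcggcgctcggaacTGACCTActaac

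All 4 members varied among the 9 groups. The F test of the limma model gave an adjusted p of 1.79e-06 for Dbp, 1.79e-06 for Tef, 6.57e-06 for Hlf and 4.71e-08 for Nfil3, at a threshold that 35.2% of all genes passed. Nfil3 had the 3rd smallest p of all 18193 genes. Dbp spanned 6.50 log2 units from its lowest to its highest array, the 19th widest range, against a median of 0.817 over all genes. The ranges of Nfil3 (3.66), Tef (3.73) and Hlf (3.65) ranked 236th, 218th and 240th. In every bulk value, fewer cells that express a gene and less RNA per cell cannot be told apart. No detection call was used here, so a group near or below the array medians is not shown to lie above background. This holds for Dbp and Hlf in the 9- and 12-week SPF knockouts. It also holds for Dbp in the 7-week conventional knockouts (mean 5.14) and Hlf in the 9-week conventional knockouts. For Nfil3 it holds in the 7-week wild types and the 7-week SPF knockouts (mean 5.05 in the latter). Differences are therefore given as measured log2 values, with no fold.

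Dbp, a PAR bZIP gene with a strong daily rhythm in many tissues, was high in the young wild types and SPF knockouts. At 7 weeks its log2 level was 10.06, 10.26 and 10.22 in the wild types and 10.16, 10.33 and 10.18 in the SPF knockouts. In the conventional knockouts of the same age it was 5.53, 4.87 and 5.03. The 3 conventional knockouts thus lay below all 6 other arrays of that age. At 9 weeks Dbp was 6.68, 6.60 and 6.97 in wild types, 5.004, 5.76 and 7.05 in conventional knockouts and 4.78, 5.02 and 3.90 in SPF knockouts. All 3 kinds of mice were below the high level of 7 weeks, and conventional knockout replicate 3 reached the wild-type range. At 12 weeks Dbp was 9.12, 9.94 and 5.93 in wild types, 4.66, 6.59 and 6.40 in conventional knockouts and 3.83, 4.59 and 4.34 in SPF knockouts. Wild-type replicate 3 lay far below replicates 1 and 2 and inside the range of the conventional knockouts.

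**Figure D1:**
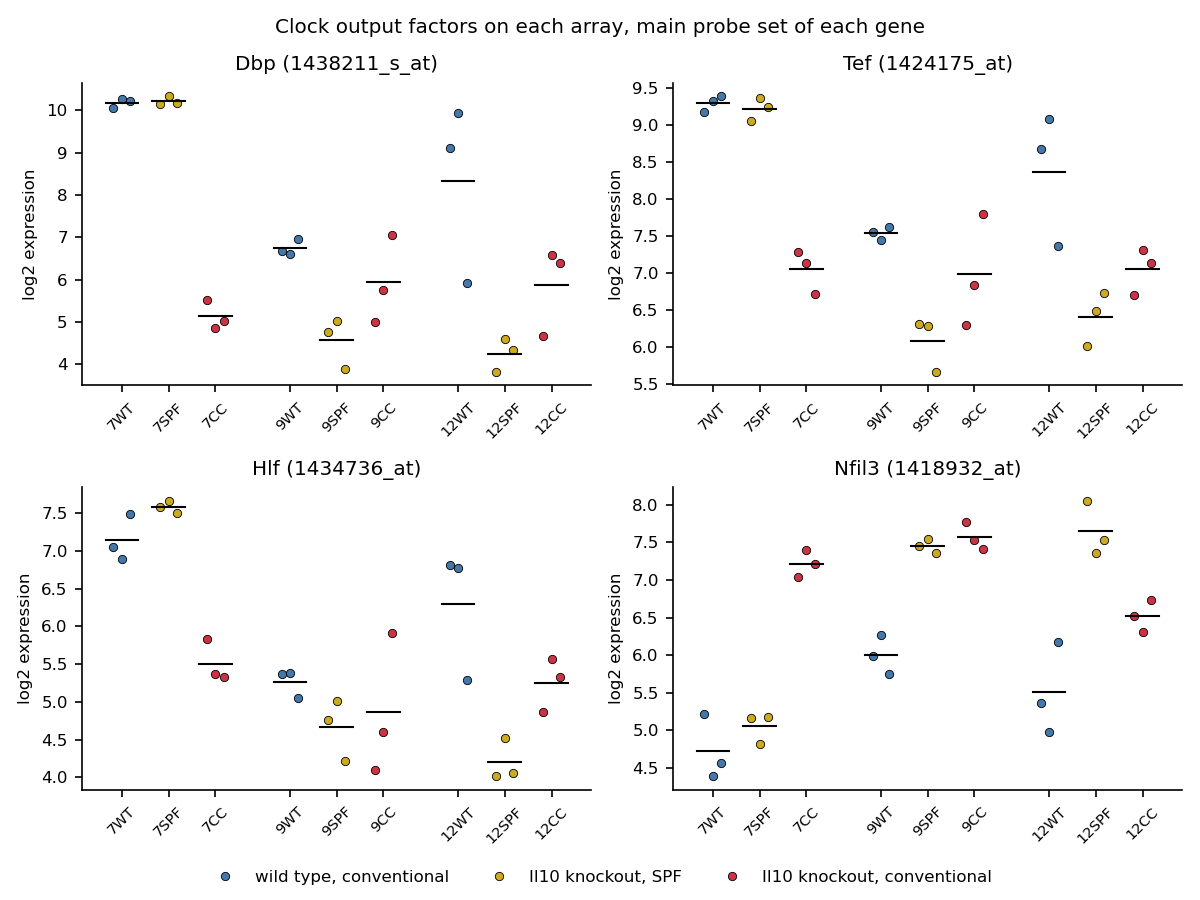
Log2 level of the main probe set of each member in each of the 27 arrays, with kinds of mice and ages along the horizontal axis. Points are arrays and bars are group means. Dbp, Tef and Hlf are high in the 7-week wild types and SPF knockouts, where Nfil3 is between 4.39 and 5.21.

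Tef, which encodes thyrotroph embryonic factor, was high in the same groups, with a smaller span. At 7 weeks it was 9.18, 9.32 and 9.39 in wild types, 9.05, 9.37 and 9.25 in SPF knockouts and 7.28, 7.14 and 6.72 in conventional knockouts. At 9 weeks it was 7.55, 7.45 and 7.62 in wild types, 6.29, 6.84 and 7.80 in conventional knockouts and 6.30, 6.28 and 5.66 in SPF knockouts. Conventional knockout replicate 3 was again the high array of its group. At 12 weeks Tef was 8.67, 9.08 and 7.36 in wild types, 6.70, 7.30 and 7.14 in conventional knockouts and 6.01, 6.48 and 6.73 in SPF knockouts. The same wild-type replicate 3 was low, though it stayed just above all conventional knockouts of that age.

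Hlf, which encodes hepatic leukaemia factor, was likewise high in the 7-week wild types and SPF knockouts. At 7 weeks it was 7.05, 6.89 and 7.48 in wild types, 7.59, 7.66 and 7.51 in SPF knockouts and 5.83, 5.37 and 5.33 in conventional knockouts. At 9 weeks it was 5.37, 5.38 and 5.05 in wild types, 4.09, 4.60 and 5.92 in conventional knockouts and 4.76, 5.01 and 4.22 in SPF knockouts. At 12 weeks it was 6.82, 6.78 and 5.29 in wild types, 4.87, 5.57 and 5.34 in conventional knockouts and 4.02, 4.53 and 4.06 in SPF knockouts. The high 9-week array and the low 12-week wild-type array were the same ones as for Dbp and Tef.

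Nfil3, the repressor, ran the other way. At 7 weeks it was 5.21, 4.39 and 4.56 in wild types, 5.17, 4.81 and 5.18 in SPF knockouts and 7.04, 7.40 and 7.22 in conventional knockouts. At 9 weeks it was 5.99, 6.27 and 5.74 in wild types, 7.78, 7.54 and 7.42 in conventional knockouts and 7.45, 7.54 and 7.35 in SPF knockouts. At 12 weeks it was 5.37, 4.98 and 6.18 in wild types, 6.52, 6.31 and 6.73 in conventional knockouts and 8.05, 7.37 and 7.54 in SPF knockouts. Every wild-type array lay at or below 6.27, and both kinds of knockouts lay above the wild types at 9 and 12 weeks without overlap.

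The order of the group means is given first for Dbp. From the lowest mean it ran 12-week SPF knockouts (4.25 ± 0.39, SD, n = 3), 9-week SPF knockouts (4.57 ± 0.59) and 7-week conventional knockouts (5.14 ± 0.35). Then came 12-week (5.88 ± 1.06) and 9-week (5.94 ± 1.03) conventional knockouts, 9-week wild types (6.75 ± 0.19) and 12-week wild types (8.33 ± 2.12). The 7-week wild types (10.18 ± 0.11) and SPF knockouts (10.22 ± 0.09) were highest. Of the neighbours in this order, only the 12-week and 7-week wild types had ranges that did not overlap.

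For Nfil3 the lowest means were those of the 7-week wild types (4.72 ± 0.43, SD, n = 3) and 7-week SPF knockouts (5.05 ± 0.21). Next were the wild types of 12 weeks (5.51 ± 0.61) and 9 weeks (6.001 ± 0.26), then conventional knockouts of 12 weeks (6.52 ± 0.21) and 7 weeks (7.22 ± 0.18). The 9-week SPF knockouts (7.45 ± 0.09), 9-week conventional knockouts (7.58 ± 0.18) and 12-week SPF knockouts (7.65 ± 0.36) were highest. The ranges of neighbours overlapped except on either side of the 12-week conventional knockouts. In the order for Tef they were apart only between 12-week conventional knockouts (7.05 ± 0.31) and 9-week wild types (7.54 ± 0.09). In that for Hlf the only breaks lay between the 12-week wild types (6.29 ± 0.87), the 7-week wild types (7.14 ± 0.31) and the 7-week SPF knockouts (7.59 ± 0.08).

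All 4 members separated conventional knockouts from wild types at 7 weeks. Dbp was lower by 5.04 ± 0.67 on the log2 scale (SE, n = 3 arrays per group, limma adjusted p = 0.000201). Tef was lower by 2.25 ± 0.34 (adjusted p = 0.00121), and Nfil3 was higher by 2.50 ± 0.24 (adjusted p = 5.76e-06). Hlf was lower by 1.63 ± 0.37 with an adjusted p of 0.0448. Of all genes 0.506% were called in this comparison, 92 in number, and 18.6% had groups that did not overlap, as the 4 members had. The Hlf call rests on all 6 arrays: without any 1 of them its difference stayed between -1.79 and -1.46, and the adjusted p was between 0.0733 and 0.223. The other 3 kept their calls without any 1 array.

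**Figure D2:**
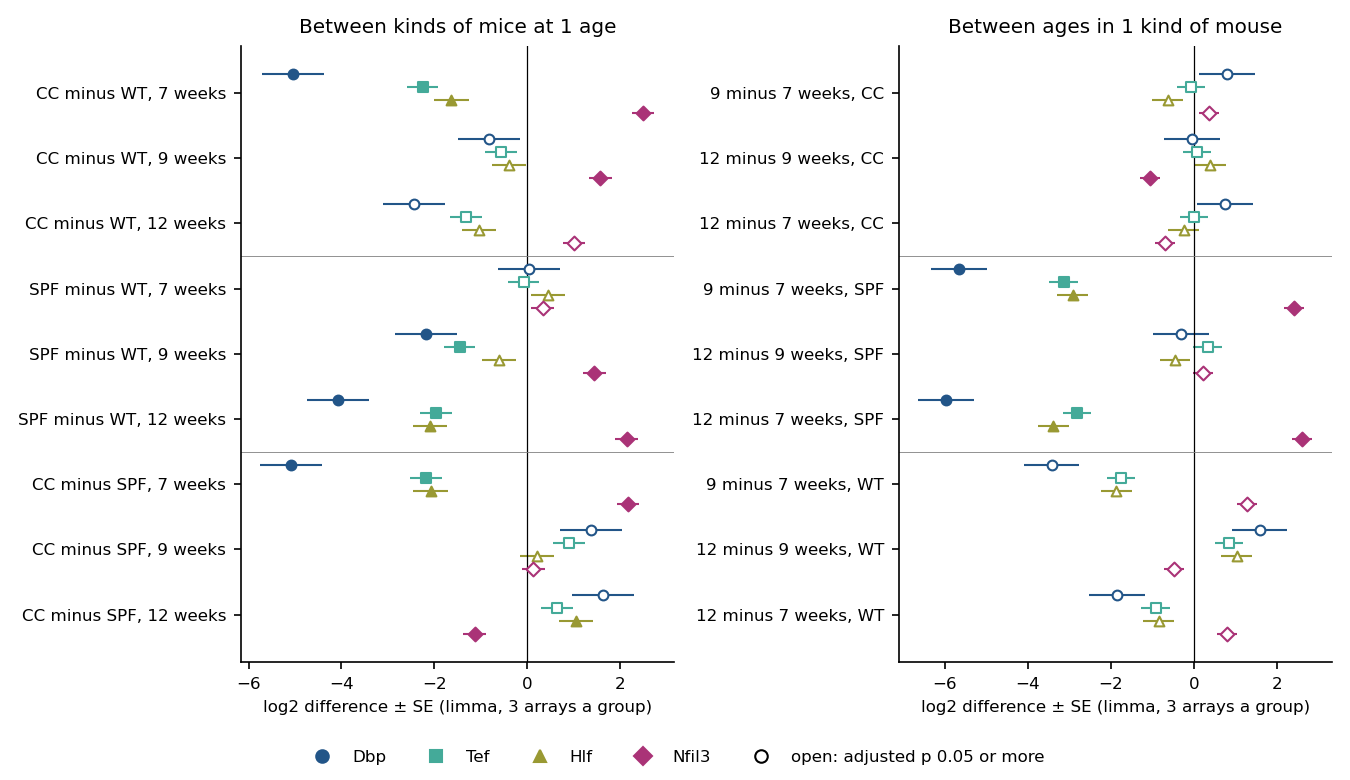
Log2 differences between groups for the main probe set of each member, with bars of ± 1 SE from the limma model. The left panel compares kinds of mice (CC, conventional knockouts; SPF, SPF knockouts; WT, wild types) and the right panel ages. Filled points passed an adjusted p of 0.05 over all genes; at 7 weeks all 4 members passed in the comparisons with the conventional knockouts, and none passed between SPF knockouts and wild types.

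All 4 members also passed between conventional and SPF knockouts of 7 weeks, a comparison that shares its conventional knockout arrays with the last. Nfil3 was higher by 2.17 ± 0.24 (limma adjusted p = 0.00015), the smallest p of all genes. Dbp was lower by 5.08 ± 0.67 (adjusted p = 0.000327), Tef by 2.17 ± 0.34 (adjusted p = 0.00236) and Hlf by 2.08 ± 0.37 (adjusted p = 0.0113). Only 49 genes were called here, 0.269% of all, and the groups did not overlap for any member (16.1% of all genes). Hlf lost its call without conventional knockout replicate 2 (-2.01, adjusted p = 0.0721) or 3 (-1.99, 0.0675), and without SPF knockout replicate 2 (-2.04, 0.0798) or 3 (-2.12, 0.0509).

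SPF knockouts and wild types of 7 weeks were not shown to differ in any member. The difference was 0.04 for Dbp (95% interval -1.34 to 1.42), -0.08 for Tef (-0.78 to 0.63), 0.44 for Hlf (-0.32 to 1.21) and 0.33 for Nfil3 (-0.17 to 0.83). These intervals use the spread pooled over all 9 groups. By limma 0 of the 4 had an adjusted or an unadjusted p under 0.05. Of all genes, 0.055% were called. The 3 SPF arrays lay above the 3 wild types for Hlf, a separation seen in 13.3% of genes.

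At 9 weeks only the repressor passed the test between conventional knockouts and wild types. Nfil3 was higher by 1.58 ± 0.24 (limma adjusted p = 0.000174), in a comparison where 24% of genes were called and 42.5% had groups that did not overlap. Dbp differed by -0.81 ± 0.67 (adjusted p = 0.417), Tef by -0.56 ± 0.34 (0.254) and Hlf by -0.40 ± 0.37 (0.486). Without conventional knockout replicate 3 Dbp differed by -1.37, Tef was lower by 0.97 (adjusted p = 0.0356) and Hlf by 0.92 (0.0489), and 3 members were called.

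SPF knockouts of 9 weeks differed from wild types in 3 members, where 11.8% of genes were called. Nfil3 was higher by 1.45 ± 0.24 (limma adjusted p = 0.00136). Tef was lower by 1.46 ± 0.34 (adjusted p = 0.00966) and Dbp by 2.18 ± 0.67 (0.0369), while Hlf differed by -0.60 ± 0.37 (0.301). All 4 had groups that did not overlap, as 37.4% of genes had. Without SPF replicate 3, only Nfil3 was called, with Tef at -1.25 (adjusted p = 0.0878) and Dbp at -1.85 (0.2). Dbp was also not called without wild-type replicate 1 (-2.22, 0.085), 2 (-2.26, 0.0817) or 3 (-2.07, 0.102). By limma, 0 of the 4 members and 0% of genes were called between conventional and SPF knockouts of this age, with 1 member at an unadjusted p under 0.05. The intervals were -0.01 to 2.75 for Dbp, 0.19 to 1.60 for Tef, -0.56 to 0.98 for Hlf and -0.37 to 0.63 for Nfil3.

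At 12 weeks the SPF knockouts differed from wild types in all 4 members. Dbp was lower by 4.07 ± 0.67 (limma adjusted p = 0.000149), and Tef by 1.97 ± 0.34 (0.000231). Hlf was lower by 2.09 ± 0.37 (0.000264) and Nfil3 higher by 2.14 ± 0.24 (5.41e-06). These calls stand in a comparison in which 34.8% of genes were called and 33.5% had groups that did not overlap, as all 4 members had. Each held without any 1 array.

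In the conventional knockouts of 12 weeks 0 members were called against wild types by limma, although all 4 had an unadjusted p under 0.05. Dbp differed by -2.44 ± 0.67 (adjusted p = 0.0881), Tef by -1.32 ± 0.34 (0.0745), Hlf by -1.04 ± 0.37 (0.176) and Nfil3 by 1.01 ± 0.24 (0.0611). Of all genes, 0.451% were called. Tef and Nfil3 had groups that did not overlap, as 18.1% of genes had. Without wild-type replicate 3 all 4 passed, with Dbp at -3.64 (adjusted p = 0.00103), Tef at -1.83 (0.00748), Hlf at -1.54 (0.0464) and Nfil3 at 1.35 (0.00748). Its actin difference between ends was 0.62, inside the span of the other arrays. Its array quality weight in limma was 1.05, against 0.56 for wild-type replicate 1 and 0.30 for replicate 2. Replicate 2 also had the largest actin difference of all arrays, 0.95. The calls without replicate 3 thus rest on the wild-type arrays of lower weight, and its part in the result was not tested further.

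The 2 kinds of knockouts differed at 12 weeks in the direction opposite to that at 7 weeks. Nfil3 was lower in the conventional knockouts by 1.13 ± 0.24 (limma adjusted p = 0.00333) and Hlf was higher by 1.06 ± 0.37 (0.0408), where 24.6% of genes were called. Dbp differed by 1.63 ± 0.67 (0.0785) and Tef by 0.64 ± 0.34 (0.183). The test of the change itself, from 7 to 12 weeks, gave -3.30 ± 0.34 for Nfil3 (adjusted p = 4.01e-05) and 6.71 ± 0.94 for Dbp (0.00137), at a threshold that 9.35% of genes passed. With only the arrays compared in the fit, neither Nfil3 (adjusted p = 0.0999) nor Hlf (0.107) was called. Hlf was also not called without conventional knockout replicate 2 (0.90, adjusted p = 0.142) or 3 (1.02, 0.099), or without SPF knockout replicate 1 (0.97, 0.13) or 3 (0.98, 0.138). Dbp was called without conventional knockout replicate 1 (2.24, 0.0314).

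Whether the differences between kinds of mice changed with age was tested as a difference of differences, which shares arrays with the comparisons above. Between conventional and SPF knockouts 3 of the 4 members passed for the change from 7 to 9 weeks, where 0.0934% of genes passed, and 1, Nfil3, passed from 9 to 12 weeks (18.6%). Between SPF knockouts and wild types all 4 passed from 7 to 12 weeks (8.92%). Between conventional knockouts and wild types Dbp alone of the members passed from 7 to 9 weeks (2.01%).

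With age, the members of the SPF knockouts moved together between 7 and 9 weeks. Dbp was lower at 9 weeks by 5.66 ± 0.67 (limma adjusted p = 6.95e-05), Tef by 3.14 ± 0.34 (4.63e-05) and Hlf by 2.92 ± 0.37 (0.000178). Nfil3 was higher by 2.39 ± 0.24 (2.5e-05), with the smallest p of all genes in the comparison. Tef had the 2nd, Dbp the 4th and Hlf the 7th smallest p, and 0.726% of genes were called. The differences between 12 and 7 weeks were -5.97 for Dbp, -2.82 for Tef, -3.39 for Hlf and 2.60 for Nfil3, all called among 27.9% of genes and resting on the same 7-week arrays. Between 12 and 9 weeks limma called 0 members and 0% of genes, and no member had an unadjusted p under 0.05, with differences from -0.46 for Hlf to 0.32 for Tef.

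The wild types showed the same signs between 7 and 9 weeks. No member was called in the main fit, which pools the spread of all 9 groups. Dbp differed by -3.43 ± 0.67 (limma adjusted p = 0.095), Tef by -1.76 ± 0.34 (0.095), Hlf by -1.88 ± 0.37 (0.0978) and Nfil3 by 1.28 ± 0.24 (0.095). All 4 unadjusted p were under 0.05 and their ranks among all genes were 7, 6, 8 and 4. A single gene, 0.0055% of all, was called, and 12.2% of genes had groups that did not overlap, as all 4 members had. Weighting the arrays by their quality called all 4 by limma, with adjusted p of 0.00109 for Dbp, 0.000858 for Tef, 0.00193 for Hlf and 0.000694 for Nfil3. Fitting only the arrays compared called 3, with 1.46e-05 for Dbp, 0.000351 for Tef and 0.00622 for Hlf. Without wild-type 7-week replicate 1, Nfil3 was called (1.52, adjusted p = 0.0289).

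Between 9 and 12 weeks of the wild types 0 members and 0% of genes were called, with 3 members at an unadjusted p under 0.05. Dbp was higher at 12 weeks by 1.58, Tef by 0.83 and Hlf by 1.03, and Nfil3 differed by -0.49. Without 12-week replicate 3, limma called Dbp (2.78, adjusted p = 0.0211), Tef (1.34, 0.0465) and Hlf (1.53, 0.0455). These calls rest on 12-week replicates 1 and 2, the arrays of lower quality weight in that group. Against 7 weeks the 12-week wild types differed by -1.85 for Dbp, -0.93 for Tef, -0.85 for Hlf and 0.79 for Nfil3, and limma called 0 of the 4 and 0.121% of genes, although all 4 had an unadjusted p under 0.05.

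In the conventional knockouts no array had Dbp above 7.05 at any age. Between 9 and 7 weeks limma called 0 members, with none at an unadjusted p under 0.05, while 10.4% of genes were called. The differences were 0.79 for Dbp, -0.07 for Tef, -0.64 for Hlf and 0.36 for Nfil3. Without 9-week replicate 3, Hlf was called (-1.16, adjusted p = 0.0295). Nfil3 fell by 1.06 ± 0.24 between 9 and 12 weeks (limma adjusted p = 0.0137), where 7.34% of genes were called. That call was lost without 9-week replicate 1 (-0.96, 0.0887), 12-week replicate 1 (-1.06, 0.0525) or 12-week replicate 2 (-0.95, 0.0691). Between 12 and 7 weeks limma called 0% of genes, and Nfil3, the 1 member with an unadjusted p under 0.05, differed by -0.70 (adjusted p = 0.817).

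The other probe sets of a gene rose and fell with its main one over the 27 arrays. Pearson's r with the main probe set was 0.989 for Dbp 1418174_at, 0.930 for Tef 1450184_s_at, 0.931 for Tef 1438033_at and 0.912 for Hlf 1434735_at, as a description. At 7 weeks Dbp 1418174_at was 9.19, 9.26 and 9.22 in wild types, 9.27, 9.34 and 9.40 in SPF knockouts and 4.62, 4.55 and 4.36 in conventional knockouts, again without overlap. Tef 1438033_at was 6.72, 6.46 and 6.61 in wild types, 6.96, 7.37 and 7.18 in SPF knockouts and 4.54, 4.08 and 4.02 in conventional knockouts. In those conventional knockouts both probe sets lay below the array medians and are not shown to lie above background.

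The 2 Hlf probe sets disagreed in size. Hlf 1434735_at was 5.21, 5.77 and 6.07 in the 7-week wild types and 5.61, 5.12 and 5.02 in the conventional knockouts, which overlap. In a limma fit over all 45037 probe sets it differed by -0.44 ± 0.23 (adjusted p = 0.536), and the main Hlf probe set had an adjusted p of 0.0533. In that fit 6 of the 8 member probe sets passed between conventional knockouts and wild types of 7 weeks (background 0.304% of probe sets). All 8 passed between the 2 kinds of knockouts at 7 weeks (0.164%), between SPF knockouts and wild types at 12 weeks (26.4%) and between 9 and 7 weeks in SPF knockouts (0.409%). Between 9 and 7 weeks in wild types, where 0.0155% of probe sets passed, Dbp 1418174_at (-3.43, adjusted p = 0.023) and Tef 1450184_s_at (-1.72, 0.00183) were 2 of the 7 that did.

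**Figure D3:**
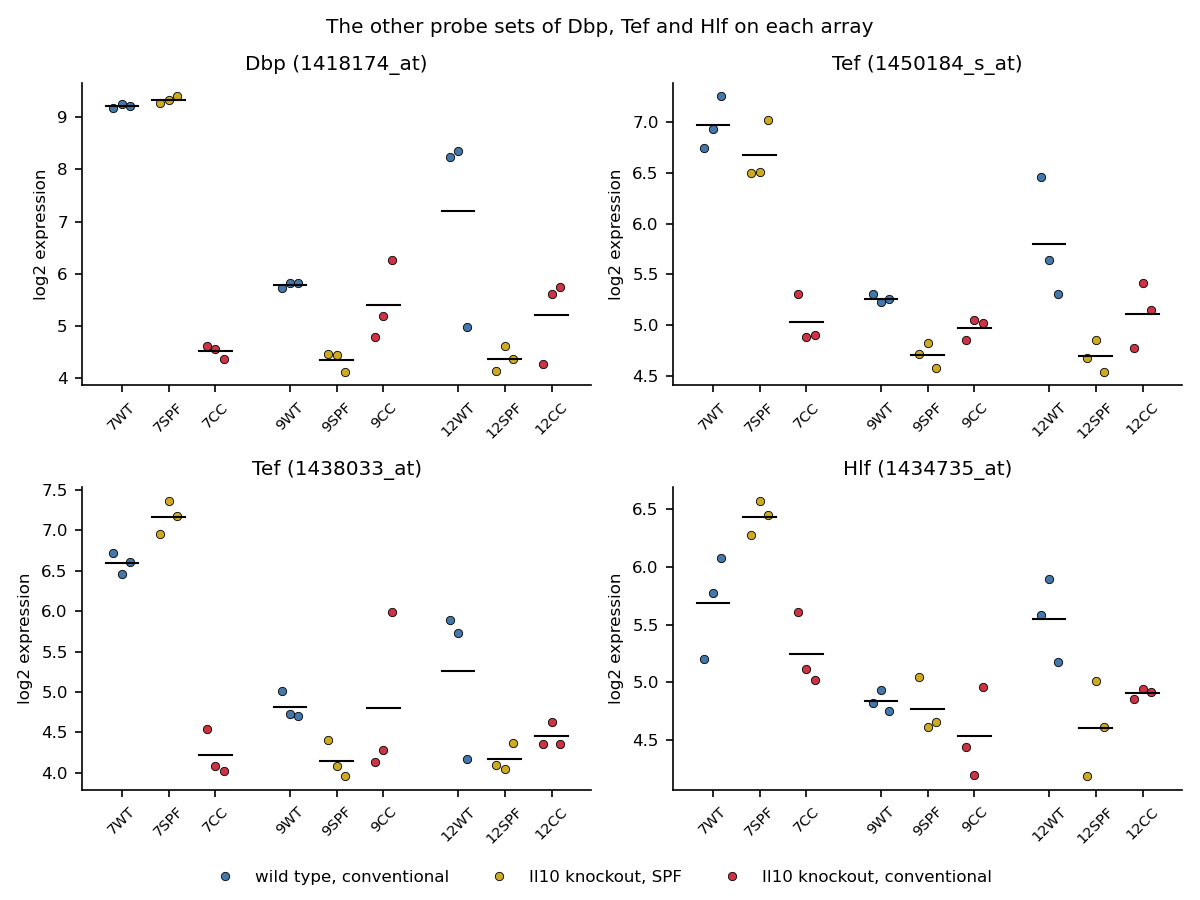
Log2 level of the 4 probe sets of Dbp, Tef and Hlf that were not used at the gene level, in each of the 27 arrays by kind of mouse and age. Points are arrays and bars are group means; Hlf 1434735_at shows the smallest gap at 7 weeks.

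Within groups the members also varied more than most genes. The residual SD over the 9 groups was 0.904 for Dbp, 0.458 for Tef, 0.497 for Hlf and 0.320 for Nfil3, against a median of 0.168 over all genes. Deviations from the group means were shared. Over 27 arrays the deviations of Dbp and Tef correlated at r = 0.920 (Spearman's rho 0.875), those of Tef and Hlf at 0.888 (0.775) and those of Dbp and Hlf at 0.871 (0.800). Each permutation p of r was 1e-05, the smallest that 100000 draws can give (2e-05 adjusted over the 6 pairs).

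Nfil3 deviated the other way, at r = -0.668 with Dbp (rho -0.598, permutation p 0.00025, adjusted 0.0003), -0.666 with Tef (rho -0.553, 0.00017, adjusted 0.000255) and -0.516 with Hlf (rho -0.354, 0.00584). The Spearman p for Hlf and Nfil3 was 0.0702. For each pair, r was also taken without the 2 arrays farthest from the median of its first-named gene, so the arrays left out can differ between pairs. It was then 0.869 for Dbp and Tef, 0.814 for Tef and Hlf, and 0.853 for Dbp and Hlf. It was -0.381 for Dbp and Nfil3, -0.521 for Tef and Nfil3, and -0.357 for Hlf and Nfil3. The relation with the repressor thus rests in part on the arrays left out of each pair. Deviations within a group of 3 are not independent, and these p-values do not allow for that.

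Over the levels themselves the arrays fell into clusters by Dbp, 8 arrays at 9.12 or above and 19 at 7.05 or below, so no pooled r is tested. The p-values within each cluster treat arrays as independent, although arrays of a group share its mean and the clusters were set on Dbp itself, so they describe the spread of arrays and not that within groups. Within the 19 lower arrays, which come from 7 groups, r was 0.887 for Dbp and Tef (rho 0.868, permutation p 1e-05, adjusted over the 6 pairs 6e-05), 0.792 for Tef and Hlf (rho 0.768, 5e-05, adjusted 0.00015) and 0.731 for Dbp and Hlf (rho 0.767, 0.00052, adjusted 0.00104). With Nfil3 it was -0.692 for Dbp (rho -0.582, permutation p 0.00141, adjusted 0.00197), -0.679 for Tef (rho -0.668, 0.00164, adjusted 0.00197) and -0.525 for Hlf (rho -0.565, 0.0222, adjusted 0.0222). Without 2 arrays per pair, left out by the same rule with Nfil3 as the second gene, r was 0.848, 0.731, 0.728, -0.770, -0.859 and -0.394 in the same order. Hlf and Nfil3 thus had the weakest relation. Within the 8 high arrays, Dbp and Tef had r = 0.929 (exact permutation p 0.00327, adjusted 0.0196), and 0.674 without the 2 arrays farthest from the median of Dbp. Spearman's rho of that pair was 0.857 (exact permutation p 0.0107), which did not pass after adjustment (0.0643). The other 5 pairs there had adjusted p of 0.0921 or more for r and 0.0917 or more for rho.

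**Figure D4:**
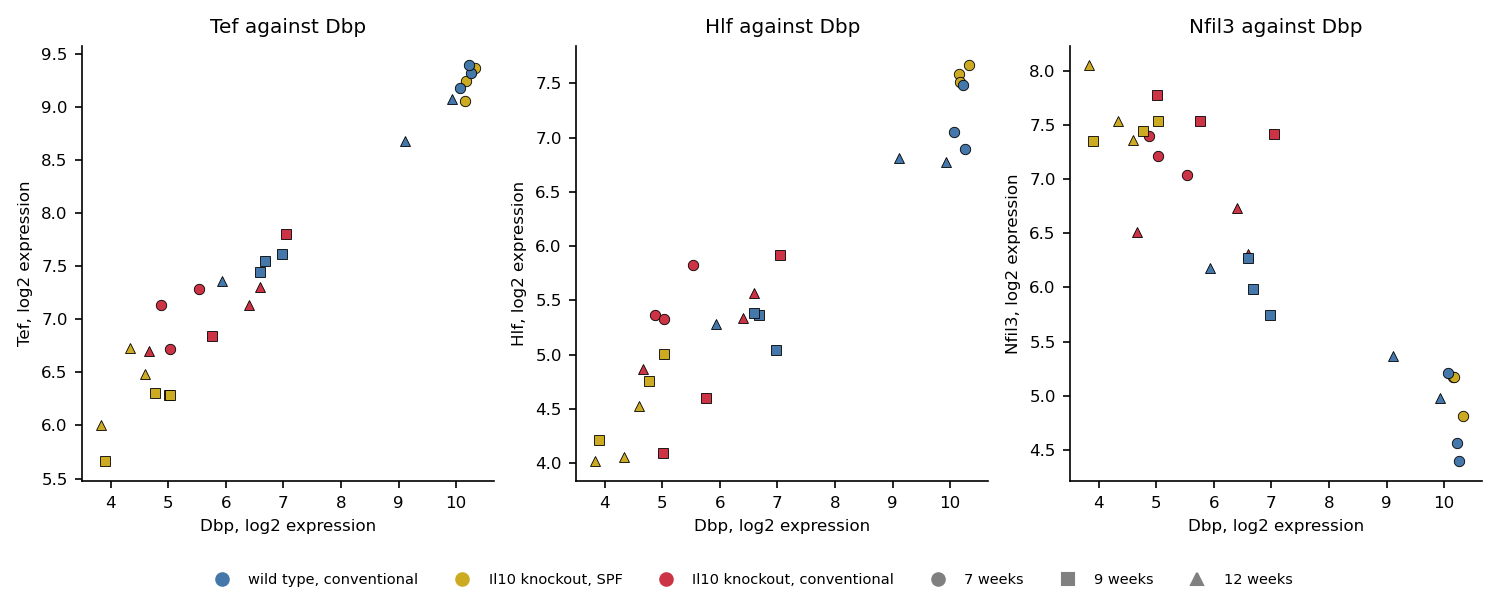
Log2 level of Tef, Hlf and Nfil3 against that of Dbp, 1 point per array, marked by kind of mouse and age. Arrays lie in a lower cluster with Dbp at 7.05 or below and an upper one at 9.12 or above, with Nfil3 low in the upper cluster.

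Of all 18192 other genes, the 5 most like each member and the 3 most opposite over the 27 arrays are given here by Pearson's r as a description, over arrays that share groups and processing. The 5 most like Dbp were Tef (0.980), the REV-ERB gene Nr1d2 (0.962), Hlf (0.947), the period gene Per3 (0.940) and Nr1d1 (0.917). Those most opposite were Dusp6 (-0.932), which encodes a phosphatase of ERK kinases, Nfil3 (-0.925) and the cell cycle factor E2f2 (-0.911). For Tef they were Dbp, Hlf (0.953), Per3 (0.951), Nr1d2 (0.938) and Ankrd12 (0.906), with Nfil3 (-0.924), E2f2 (-0.913) and Rnf125 (-0.911) opposite. For Hlf they were Per3 (0.958), Tef, Dbp, 0610005C13Rik (0.938) and Cipc (0.924), which encodes an inhibitor of CLOCK, with E2f2 (-0.918), Rnf125 (-0.892) and C730049O14Rik (-0.891) opposite. The genes most like Nfil3 were Rnf125 (0.935), E2f2 (0.935), Leo1 (0.915), the EGF receptor ligand Hbegf (0.906) and Brca1 (0.899), and the most opposite were Dbp, Cipc (-0.925) and Tef.

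Of the clock loop upstream of the members, 20 of 22 listed genes were measured, and some were called at 7 weeks. Between conventional knockouts and wild types 3 of the 20 rose and 4 fell, where 0.506% of all genes were called, with a list median of -0.07 against -0.003 over all genes. The repressor Cry1 rose by 1.92 ± 0.24 (limma adjusted p = 0.000153), while Nr1d2 fell by 2.82 ± 0.37 (0.000169), the CLOCK inhibitor Ciart fell by 2.04 ± 0.26 (0.000169) and Nr1d1 fell by 3.15 ± 0.41 (0.000194). Against SPF knockouts 3 rose and 5 fell (0.269% of all genes called), and Cry1 was higher by 1.83 and Nr1d1 lower by 3.07. SPF knockouts and wild types of 7 weeks had 0 of 20 called by limma, with 1 at an unadjusted p under 0.05. From 7 to 9 weeks in SPF knockouts 3 rose and 9 fell (0.726% of all genes called), among them Ciart (-2.22), Nr1d2 (-2.68), Per3 (-2.25) and Nr1d1 (-2.64). In wild types the 1 called gene of that step was Ciart (-1.81 ± 0.26, adjusted p = 0.0114).

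In conventional knockouts of 9 weeks and SPF knockouts of 12 weeks the share of loop genes called against wild types was near that of all genes, so these counts are no result about the loop. Conventional knockouts of 9 weeks had 1 of 20 higher and 4 lower than wild types, with Cry2 at -0.79, Npas2 at -0.97, Wee1 at -0.43 and Timeless at 0.90, where 24% of all genes were called and Nfil3 was the 1 member called. SPF knockouts of 9 weeks also had 1 higher and 4 lower, where 11.8% of all genes were called. SPF knockouts of 12 weeks had 1 higher and 6 lower than wild types, with Cry2 at -1.29, Nr1d2 at -2.18, Per3 at -1.81 and Timeless at 1.13, where 34.8% of all genes were called. Conventional knockouts of 12 weeks had 0 called against wild types by limma, and 9 at an unadjusted p under 0.05.

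**Figure D5:**
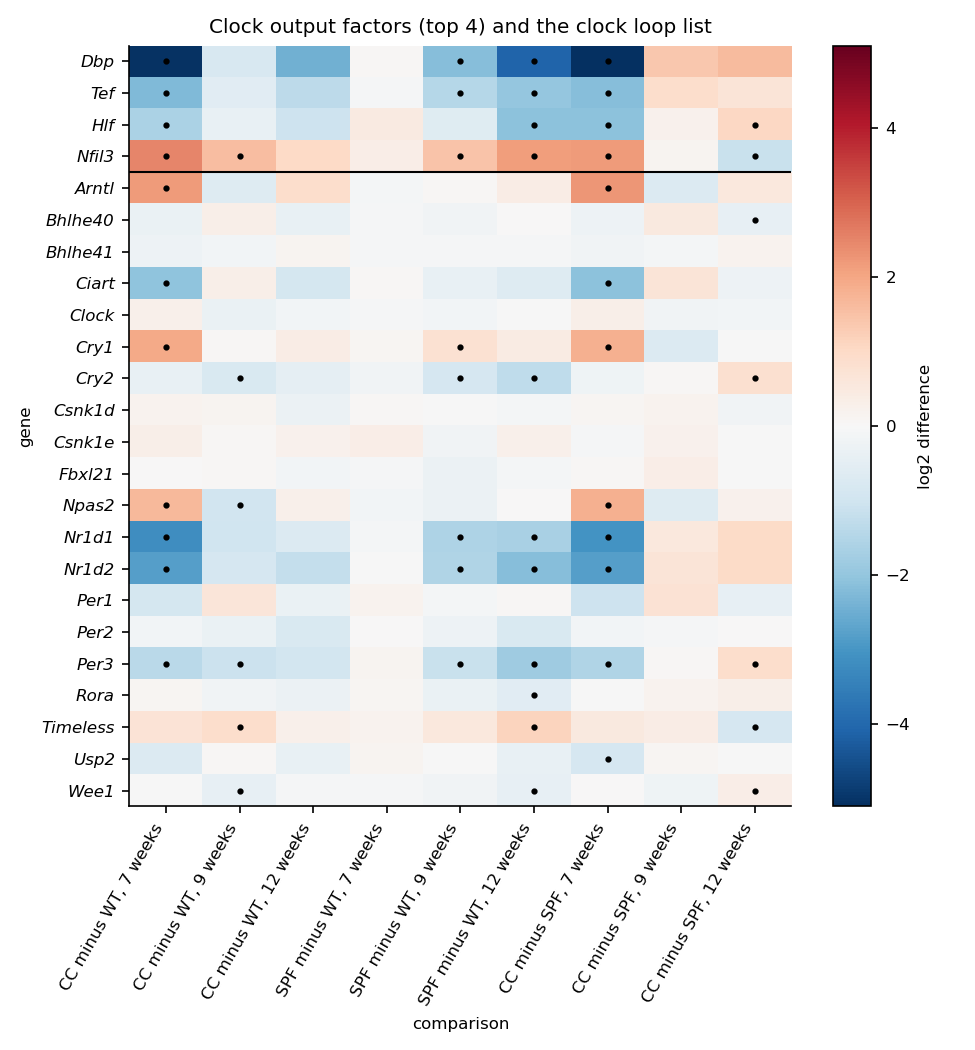
Heat map of log2 differences for the 4 members (top rows) and the 20 clock loop genes, with comparisons of kinds of mice as columns, blue for lower and red for higher in the first-named group. A dot marks an adjusted p under 0.05 over all genes; Nr1d1, Nr1d2 and Ciart are lower between conventional knockouts and wild types at 7 weeks, as are Dbp, Tef and Hlf.

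Genes reported as targets of PAR bZIP factors, 8 of 11 measured, did not pass at 7 weeks. Between conventional knockouts and wild types limma called 0 of 8, with a median of -0.27 against -0.003 over all genes and 2 at an unadjusted p under 0.05. In those wild types Cyp7a1 (3.67), Cyp2b10 (4.06) and Nr1i3 (4.56) lay below the array medians. They are not shown to lie above background, so a fall in them could hardly be seen. At 9 weeks 1 rose and 3 fell, where 24% of all genes were called: Alas1, the first enzyme of haem synthesis, by 0.96, against falls by 1.92 of the drug exporter gene Abcb1a, by 0.89 of the pyridoxal kinase gene Pdxk and by 3.15 of the peptide transporter gene Slc15a1. Dbp, Tef and Hlf were not called in that comparison. In SPF knockouts of 9 weeks, where Dbp and Tef were called lower than in wild types, so were Pdxk (-0.78, limma adjusted p = 0.00703) and Slc15a1 (-2.10, 0.0186). Alas1 was higher there (0.60, 0.0478), the other listed targets were not called, and 11.8% of all genes were. In SPF knockouts against wild types at 12 weeks 1 rose and 4 fell, among them Abcb1a (-3.15), Ppara (-2.45) and Slc15a1 (-1.89), with a list median of -0.41 against 0.02 over all genes and 34.8% of all genes called. The mean of the target list in those SPF knockouts was 5.85, 6.52 and 5.61, and the mean of 7 colonocyte markers was 10.92, 12.05 and 10.71, so both lists were lowest in replicates 1 and 3. In the wild types of that age they were 6.81 to 6.98 and 11.95 to 12.19. The part of the colonocyte markers in the target differences was not tested. In SPF knockouts between 9 and 7 weeks limma called 0 of 8, with 5 lower at an unadjusted p under 0.05, while all 4 members were called.

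Genes linked to NFIL3, 10 of 11 measured, gave 0 calls by limma between conventional knockouts and wild types at 7 weeks, with 1 at an unadjusted p under 0.05. At 9 weeks 3 rose: the cytokine feedback gene Socs3 by 3.44, the checkpoint gene Havcr2 by 0.92 and Stat3 by 0.67. At 12 weeks SPF knockouts had 4 higher and 1 lower than wild types, with Socs3 at 3.97 and Tox at -0.76. Several genes of this list are known for responses to cytokines, and their calls stand in comparisons in which 24% and 34.8% of all genes were called.

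No inflammation marker passed the test at 7 weeks. Of 12 measured, limma called 0 between conventional knockouts and wild types, with 2 at an unadjusted p under 0.05, and 0 between the 2 kinds of knockouts, with none at that level. The mean of the list in each array was 4.81, 4.65 and 5.29 in conventional knockouts, 5.02, 4.71 and 5.36 in SPF knockouts and 4.27, 4.32 and 4.50 in wild types. The 2 kinds of knockouts overlapped in this mean, and every array of both lay above the wild types. Its part in the differences of the members at 7 weeks was not tested. At 9 weeks 12 of 12 were higher in conventional knockouts than in wild types (median 4.53), where 24% of all genes were called. At 12 weeks 12 of 12 were higher in SPF knockouts (median 4.57), where 34.8% were called. Of conventional knockouts at 9 weeks, replicate 3, the array with the highest Dbp, Tef and Hlf, had the lowest mean of its group, 7.86 against 9.56 and 8.97. Of SPF knockouts at 9 weeks, replicate 3, with the lowest Dbp, Tef and Hlf, had the highest, 8.47 against 5.49 and 6.17. The SPF knockouts of 12 weeks followed that order only in part. Replicate 2, with the lowest mean (7.20 against 9.98 and 10.49), had the highest Dbp and Hlf. Replicate 3, with the highest mean, had the highest Tef, and Dbp, Tef and Hlf were lowest in replicate 1. The 12-week wild types had 4.43, 4.34 and 4.35, so replicate 3 did not stand apart in it.

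Few of the cell type markers counted here passed at 7 weeks. Between conventional knockouts and wild types at 7 weeks 1 of 6 macrophage markers was called, higher, and limma called 0 of 7 smooth muscle, 0 of 6 enteric neuron and glia, 0 of 5 neutrophil and 0 of 7 colonocyte markers. The mean of the macrophage list was 6.92 to 6.99 in those conventional knockouts, 6.31 to 6.90 in SPF knockouts and 6.22 to 6.61 in wild types. That of smooth muscle was 11.76 to 11.93, 11.78 to 11.83 and 11.90 to 11.98. In the same order, that of NK cells was 4.17 to 4.34, 4.37 to 4.61 and 4.18 to 4.34. That of group 3 innate lymphoid cells was 6.91 to 7.15, 6.86 to 7.20 and 6.83 to 7.14. The adipocyte list mean ran from 4.76 to 7.30 within the 9-week SPF knockouts alone. At 9 weeks, where 24% of all genes were called, conventional knockouts had 5 of 7 smooth muscle markers lower than wild types (list mean 11.30 to 11.49 against 12.00 to 12.15). They had 3 of 6 enteric neuron and glia markers lower (5.19 to 5.58 against 5.95 to 6.07), 6 of 6 macrophage markers higher (7.52 to 8.10 against 6.35 to 6.74) and 3 of 5 neutrophil markers higher (6.05 to 7.24 against 3.48 to 3.66). Of the 7 colonocyte markers 1 was higher and 2 were lower (11.67 to 11.87 against 12.09 to 12.19). The NK cell list mean was 4.94 to 5.28 in these conventional knockouts against 4.19 to 4.23 in wild types. That of group 3 innate lymphoid cells was 6.95 to 6.97 against 6.86 to 7.06, which overlap. SPF knockouts of 9 weeks, where 11.8% of all genes were called, had 6 of 12 inflammation markers higher, 2 of 7 smooth muscle and 2 of 6 enteric neuron and glia markers lower, and 1 of 6 macrophage and 1 of 7 colonocyte markers higher than wild types. Limma called 0 of 5 neutrophil markers there, with 1 at an unadjusted p under 0.05. At 12 weeks, where 34.8% of all genes were called, SPF knockouts had 7 of 7 smooth muscle markers lower than wild types (10.14 to 11.44 against 11.82 to 11.92). Of enteric neuron and glia markers 4 were lower and 1 higher (4.96 to 5.38 against 5.69 to 5.86), and 3 of 7 colonocyte markers were lower (10.71 to 12.05 against 11.95 to 12.19, which overlap). There 6 of 6 macrophage markers (7.31 to 8.39 against 6.29 to 6.59) and 4 of 5 neutrophil markers (5.11 to 8.74 against 3.56 to 3.63) were higher. Their part in the differences of Dbp, Tef, Hlf and Nfil3 at 9 and 12 weeks was not tested. Markers of pancreatic acinar cells reached a list mean of 7.36 in wild-type replicate 1 of 7 weeks, and at most 4.08 in the conventional knockouts of that age. No acinar marker was called in that comparison. In the SPF knockouts of 12 weeks the acinar list mean was 6.01 in replicate 3, and 3.91 and 3.92 in replicates 1 and 2.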

How the data were processed

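Biotin-labelled RNA was hybridized to 1 Affymetrix array per sample. A rat array is named in the design text, whereas the probe sets match a mouse annotation. Per the series' design text, the authors normalized with affyPLM. The deposited values are log2 expression (2.10 to 14.25). The package version, background step and summary method were not given in these sources.

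Leaving out 64 controls of 45101 probe sets, those with 1 symbol in GEO's platform annotation (34945) gave 18193 genes. A gene's brightest probe set on average stood for it. Probe sets with several symbols (932) or none (9160) entered no gene test. limma (3.58.1, R 4.3.3) fitted 9 group means over 27 arrays (18 residual degrees of freedom). A call is a two-sided eBayes p below 0.05 after Benjamini-Hochberg adjustment across genes within each contrast. A second fit covered all probe sets, and both were tested on simulated data. Correlations had 100000 permutations, or all of them for 8 arrays, two-sided. Members and gene lists were chosen with earlier results of these data known. Named were all probe sets of the members, the 5 genes most like each and the 3 most opposite, and up to 4 called genes per list and comparison.

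The alternatives were a block on the replicate number, repeated quantile normalization, median centring, a filter on the dimmest 40% of genes, all probe sets, averaged probe sets per gene, an intensity trend, array weights, a fit on only the arrays compared, and each array left out in turn. Promoters came from RefSeq. Python 3.11.15, NumPy 2.4.6, pandas 2.3.3, SciPy 1.17.1 and matplotlib 3.10.9 made the tables and figures.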

Additional observations from a re-analysis of the deposited data

Results flagged for a closer look

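The difference between kinds of mice changed with age in 13 of the tests made on the members, each by the limma model's test of the difference of differences (± SE, n = 3 arrays per group, adjusted over all genes). Groups of 3 are too small for a test of single outlying arrays. The difference between conventional and SPF knockouts changed from 7 to 12 weeks by 6.71 ± 0.94 for Dbp (adjusted p = 0.00137), 2.82 ± 0.48 for Tef (0.00455), 3.13 ± 0.52 for Hlf (0.00436) and -3.30 ± 0.34 for Nfil3 (4.01e-05), where 9.35% of genes were called. From 7 to 9 weeks it changed by 6.45 for Dbp (0.0041), 3.07 for Tef (0.00508) and -2.04 for Nfil3 (0.00821), among 17 called genes, 0.0934% of all. From 9 to 12 weeks it changed by -1.26 for Nfil3 (0.015; 18.6% called), which without 12-week SPF replicate 1 was -1.06 (0.0538).

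The difference between SPF knockouts and wild types changed from 7 to 12 weeks by -4.12 for Dbp (0.0196), -1.89 for Tef (0.0248), -2.54 for Hlf (0.0168) and 1.81 for Nfil3 (0.0127), where 8.92% of genes were called. Leaving out an array lost some of these calls. Without 7-week SPF replicate 2, Dbp was -4.06 (0.0545), Tef -1.82 (0.061) and Hlf -2.50 (0.0506). Without 12-week SPF replicate 1, Dbp was -3.91 (0.0608) and Tef -1.69 (0.0723). Without 12-week SPF replicate 3, Dbp was -4.16 (0.0629), Tef -2.05 (0.0633) and Hlf -2.47 (0.0521). Without 12-week wild-type replicate 2, Dbp was -3.31 (0.0528) and Tef -1.54 (0.0668), and without 7-week wild-type replicate 1 Tef was -1.83 (0.0531). Nfil3 kept its call without any 1 array.

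The difference between conventional knockouts and wild types changed from 7 to 9 weeks by 4.22 for Dbp (0.0304; 2.01% called). That call was lost without 7-week conventional knockout replicate 1 (4.42, 0.0705) or 2 (4.09, 0.0742), 7-week wild-type replicate 2 (4.18, 0.0556) or 3 (4.20, 0.0698), 9-week conventional knockout replicate 2 (4.31, 0.0553), and 9-week wild-type replicate 1 (4.19, 0.0658) or 2 (4.15, 0.0797). These tests share arrays with each other and with the differences at each age.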

How the results depend on the processing

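Of 324 values of members between kinds of mice under other settings, 307 kept their direction and their side of the threshold, 8 lost a call, 6 gained one and 3 changed sign. Between ages the counts were 307 of 324 kept, 12 gained and 5 changed sign. With 1 array left out, 185 of 216 between kinds and 198 of 216 between ages were kept. Every value that changed sign was an uncalled one, and the cause was not tested.

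With array weights, 2 members were called between conventional knockouts and wild types at 9 weeks, 1 and 4 between conventional and SPF knockouts at 9 and 12 weeks, 1 and 2 in conventional knockouts from 7 to 9 and from 9 to 12 weeks, 1 in SPF knockouts from 9 to 12 weeks and 4 in wild types from 7 to 9 weeks. Quantile normalization again, and leaving out the 40% dimmest genes, each called 1 member, Nfil3, between conventional knockouts and wild types at 12 weeks. Fitting only the arrays compared called 0 between conventional and SPF knockouts at 12 weeks and 3 in wild types from 7 to 9 weeks. Averaging the probe sets of a gene called 1 and 2 in these comparisons, and with it Hlf at 7 weeks between conventional knockouts and wild types was -1.03 (adjusted p = 0.116) and Dbp at 9 weeks between SPF knockouts and wild types was -1.82 (0.0587).

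Most same-numbered arrays did not deviate together: 4 of 27 pairs between kinds and 8 of 27 between ages correlated over 0.1. The main fit paired no arrays. For replicates 1, 2 and 3, r was 0.37, 0.08 and 0.40 between 9- and 7-week wild types. It was -0.34, 0.41 and 0.56 between 12- and 9-week SPF knockouts. These counts cannot show that no groups were paired. With the replicate number as a block, 1 member was called between conventional and SPF knockouts at 12 weeks, where Hlf had an adjusted p of 0.0574, and Hlf between conventional knockouts and wild types at 7 weeks had 0.088. The block changed no other call on a member between kinds or ages.

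With probe sets averaged per gene, sign changes were seen for Tef between SPF knockouts and wild types at 7 weeks (0.062), Hlf between conventional and SPF knockouts at 9 weeks (-0.016), and Tef in conventional knockouts from 7 to 9 weeks (0.15) and from 9 to 12 weeks (-0.048). With array weights they were seen for Hlf between conventional and SPF knockouts at 9 weeks (-0.27), Dbp in conventional knockouts from 9 to 12 weeks (0.41) and Tef in SPF knockouts from 9 to 12 weeks (-0.057). With array weights the changes from 9 to 12 weeks of the differences between kinds were 0.022 for Hlf (conventional knockouts and wild types) and 0.36 for Tef (conventional and SPF knockouts). Centring gave -0.0040 for Tef in conventional knockouts from 7 to 12 weeks.

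With 1 array left out, the members called were 1 to 3 between conventional knockouts and wild types at 9 weeks and 0 to 4 at 12 weeks, 1 to 3 between SPF knockouts and wild types at 9 weeks, and 1 to 3 between the knockouts at 12 weeks. They were 0 to 1 in conventional knockouts for each step of age, and 0 to 1 and 0 to 3 in wild types from 7 to 9 and from 9 to 12 weeks. Values that changed sign ranged from -0.019 to 0.082 for Dbp and -0.15 to 0.0082 for Tef (SPF knockouts and wild types, 7 weeks) and from -0.32 to 0.60 for Hlf (conventional and SPF knockouts, 9 weeks). In conventional knockouts from 7 to 9 weeks Tef ranged from -0.48 to 0.27, and from 7 to 12 weeks from -0.16 to 0.17. From 9 to 12 weeks Dbp ranged from -0.52 to 0.56, Tef from -0.27 to 0.48 and Hlf from -1.81e-05 to 0.91. The change from 9 to 12 weeks of the difference between knockouts ranged from -0.21 to 0.87 for Dbp and from -0.60 to 0.16 for Tef. In the main fit the SE of a difference was 0.67 for Dbp, from a spread pooled over 9 groups of 3 arrays. This limits what its comparisons can show. The SD of Dbp ran from 0.09 in the 7-week SPF knockouts to 2.12 in the 12-week wild types. With only the arrays compared, its SE in wild types from 7 to 9 weeks was 0.12.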
